A study of Mus musculus with 10 samples.

Results

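Oxidative phosphorylation (OXPHOS) subunits encoded in the nucleus were examined in a mouse breast cancer cell line exposed to T cell supernatants. The genes were chosen by symbol, from the Nduf, Sdh, Uqcr, Cyc1, Cox and Atp5 names in the expression table, with at least 1 FPKM (sequenced fragments of a gene, scaled for transcript length and library size) in at least 4 of 10 libraries. Of 17171 genes measured, 82 matched the symbols and 78 passed this minimum: 37 of complex I, 4 of complex II, 9 of complex III, 11 of complex IV and 17 of complex V. The symbols of 2 of the 17, Atp5s and Atp5sl, name proteins related to factor B, which is not a subunit proper, and the protein of Ndufa4, counted here with complex I by its name, is now placed in complex IV. The subunits encoded by mitochondrial DNA are not analysed here.

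The cells were the PyMt line, derived from tumors of MMTV-PyMt transgenic mice, in which the polyoma middle T antigen is driven by a mammary tumor virus promoter. They were grown in low adherence plates with insulin in supernatant of sorted CD4+ T cells that had been stimulated ex vivo with antibodies to CD3 and CD28 and with TSLP (thymic stromal lymphopoietin). In the 6 test libraries (label sets Test1, Test2 and Test3, 2 each) the T cells were sorted from tumors and draining lymph nodes of mice labelled Tslp-PyMttg, which carry Tslp under the keratin 14 promoter besides PyMt. In the 4 control libraries (label sets Control and Blank, 2 each) the labels name as T cell donors Tslp-PyMttg TslprKO mice, which lack the TSLP receptor, and PyMttg mice, without saying which library had which. The paper's figure legends give TslprKO T cells as the source for all 4 controls and wild-type T cells for the 6 tests. Its methods name Tslp transgenic mice as the test donors. The tag Blank is not explained, although its libraries carry the same title of control supernatant, so both control sets are given apart. Whether each library is a culture of its own is not stated, and the spread behind every p-value may therefore be technical. In RNA of a culture, fewer cells with a transcript and less of it per cell cannot be told apart.

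The respiratory chain passes electrons from NADH (through complex I) and from succinate (through complex II, which is also an enzyme of the citrate cycle) to complex III and then to complex IV, which reduces oxygen. Complexes I, III and IV pump protons across the inner mitochondrial membrane, and complex V, the ATP synthase, uses the gradient to make ATP. Proliferating tumor cells use the chain for ATP, for aspartate synthesis and for the regeneration of NAD+, and inflammatory signals are known to change its activity in macrophages.

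No member gene passed the test between test and control supernatant, and the summed level of each complex overlapped between the conditions. The 37 complex I genes summed to 2018 ± 299 FPKM in test libraries and to 1946 ± 41.4 FPKM in control libraries (SD, n = 6 and 4). Complex IV genes, which encode nuclear subunits of the enzyme that reduces oxygen and the related Cox7a2l, summed to 1756 ± 292 FPKM in test and 1586 ± 164 FPKM in control libraries. The values for complex V were 2408 ± 378 FPKM in test and 2264 ± 164 FPKM in control libraries. Complex III summed to 944 ± 149 FPKM in test and 879 ± 9.35 FPKM in control libraries, and complex II to 241.4 ± 27.2 FPKM in test and 235 ± 12.2 FPKM in control libraries. Test means were thus higher by less than 1 SD of the test libraries in every complex, and test libraries were spread more widely than control libraries. Against the smaller SD of the control libraries, the difference was above 1 SD in complexes I, III and IV. Both the test mean and the test SD include Test2-1, which had the highest sum in each complex (2578 FPKM in complex I). Medians without Test2-1 are given below.

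**Figure D1:**
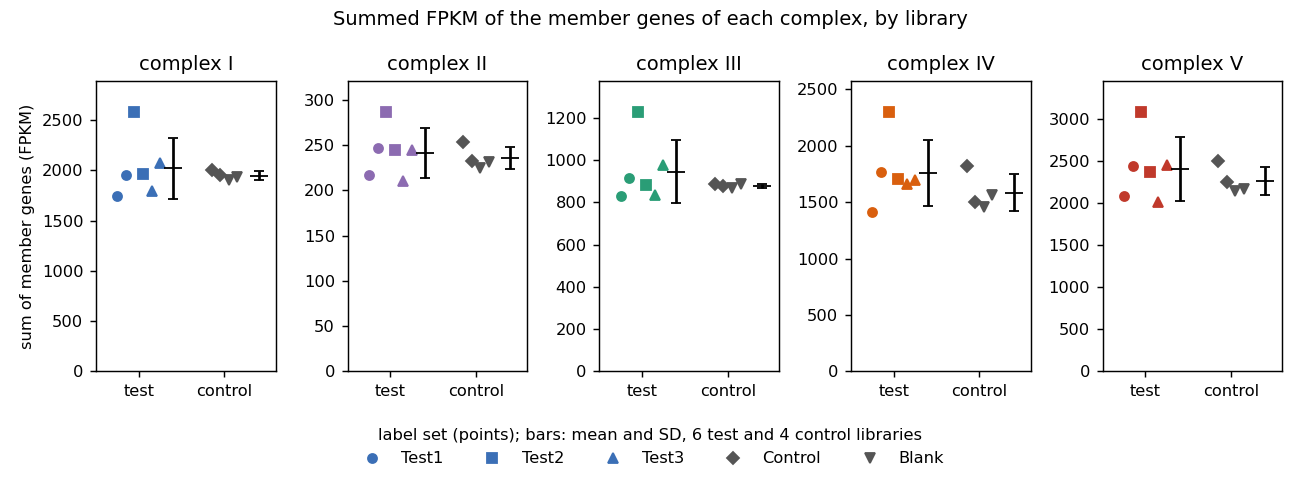
Summed FPKM of the member genes of each complex in every library, test left of control in each panel, with the label set as the marker and the mean and SD as bars (n = 6 test and 4 control libraries). In each complex 1 test library, Test2-1, stands above all other libraries, while the rest of the test libraries lie among or near the control libraries.

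Libraries carried most of the variation. Test2-1 was the library with the highest FPKM in 63 of the 78 genes, beside 17.7% of the 11169 genes tested (those over the same minimum). All 78 were above their own 10-library mean there, beside 53.1% of the genes tested. The median deviation of the members from their gene means, on the log2(FPKM + 1) scale, was 0.42 in Test2-1 and lay between -0.19 (Test1-1) and 0.07 (Test3-2) in the other test libraries, against -0.12 to 0.11 in the control libraries. The lowest values lay in Test3-1 for 25 genes and in Test1-1 for 23, both test libraries as well. Members therefore rose and fell together between libraries of 1 condition, and even of 1 label set.

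The facts of the libraries that moved with these values were as follows. The FPKM of Test2-1 summed to 487591, against 414783 to 449353 in the other 9 libraries, and members took 1.94% of its sum, against 1.48% to 1.75% in the others. In Test2-1 the deviations of genes from their means fell with transcript length (Spearman's rho across 11028 genes = -0.59, against -0.25 to 0.22 in the others), and members have short transcripts, with a median of 824 bases, against 2880 bases for genes tested. Cytosolic ribosomal protein genes, also short, had a median deviation of 0.46 there. Across genes the deviations also followed transcript GC content, with rho from -0.33 to 0.42 in test libraries and from -0.29 to 0.52 in control libraries (highest in Control-1), where genes are not independent replicates. The part of transcript length and GC content in the members' values was not tested beyond a fit with both trends removed, whose values are given below.

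**Figure D2:**
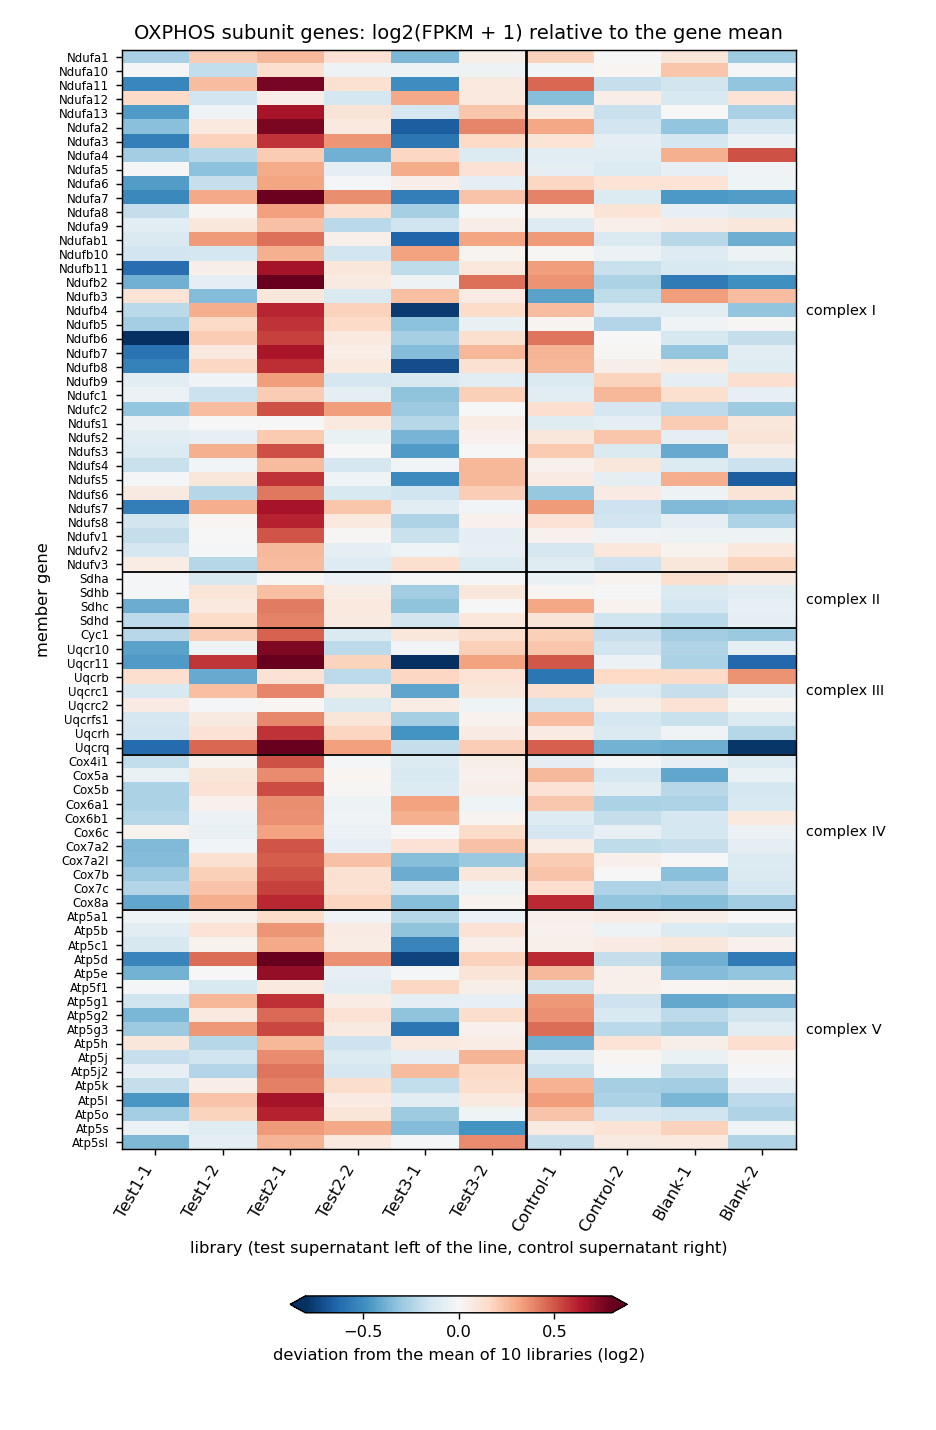
Deviation of log2(FPKM + 1) from the 10-library mean for the 78 member genes (rows, by complex) in each library (columns, test left of the vertical line and control right), red above and blue below the mean. Test2-1 is red in nearly every row, with a median deviation of 0.42, whereas Test1-1 and Test3-1 are mostly blue and Control-1 is mixed.

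In 4 of the 5 label sets the 2 libraries differed by more, at the median, than the means of the conditions did, and in Blank by about as much. The median absolute difference of the members between libraries number 1 and 2 was 0.32 in Test1, 0.41 in Test2, 0.29 in Test3, 0.26 in Control and 0.11 in Blank (log2), while the median absolute difference of test and control was 0.11. A difference of single libraries is set here beside a difference of means over 6 and 4 libraries. For the genes tested as a whole the values inside a set were 0.19 in Test1, 0.19 in Test2, 0.19 in Test3, 0.20 in Control and 0.10 in Blank, and the value for test and control was 0.17. In Test2, 77 of 78 members were higher in number 1, while in Test1 63 and in Test3 60 were higher in number 2. An extreme case, singled out after its values were seen, was Uqcr11, which encodes a small accessory subunit of complex III, with 27.9 and 76.7 FPKM in the Test3 libraries.

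**Figure D3:**
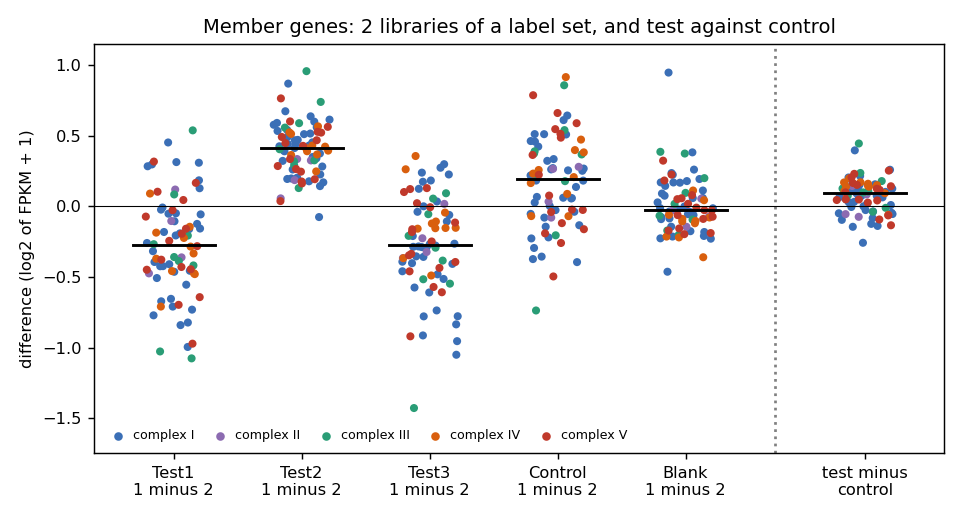
Difference in log2(FPKM + 1) of each of the 78 member genes between library 1 and library 2 of each label set (test sets left, control sets right of them) and, right of the dotted line, between test and control means, with the median as a bar. In every label set some differences reach beyond the differences between conditions, which all lie between -0.26 and 0.45. In Blank the largest is 0.95 (Ndufs5).

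Promoters of the members were also read. Whether the letters they hold go with the shared shifts between libraries was not tested. RefSeq windows of 300 bases on GRCm38.p6, from 250 bases before to 50 after a gene's start, were matched for 66 of 78 members. Exact letters that NRF1, the ETS family (to which GABP belongs) and YY1 recognize, all known regulators of OXPHOS genes, were searched on both strands. The NRF1 core letters GCGCATGC stood in a window of 10 members (15.2%), against 3.05% of 27018 genes and 6.32% of 8902 genes tested. The ETS letters CCGGAAG stood in 16 members (24.2%), against 9.93% of all and 21.9% of tested genes, and the YY1 letters AAGATGGC in 11 (16.7%), against 3.19% of all and 5.64% of tested genes. None of the motifs contains another, 31 members held at least 1 of them, and 5 (Atp5k, Atp5l, Cox6a1, Sdhb and Uqcr11) held both the NRF1 and the ETS letters. Such matches are descriptions and not binding sites.

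Shown here for each motif is the window of its carrier with the highest mean FPKM: Cox6a1 (NRF1, chr5:115348909-115349208, minus strand), Cox6b1 (ETS, chr7:30626065-30626364, minus strand) and Atp5j (YY1, chr16:84834927-84835226, minus strand, 1 of its 2 listed starts). The windows of Ndufa4 (chr6:11907401-11907700, minus strand) and of its paralog AA467197 (chr2:122637637-122637936, plus strand), both without these letters, are shown because their levels are set side by side further on. Each runs 5′ to 3′ along the gene, with the motif letters of any of the 3 kinds in capitals.
Cox6a1: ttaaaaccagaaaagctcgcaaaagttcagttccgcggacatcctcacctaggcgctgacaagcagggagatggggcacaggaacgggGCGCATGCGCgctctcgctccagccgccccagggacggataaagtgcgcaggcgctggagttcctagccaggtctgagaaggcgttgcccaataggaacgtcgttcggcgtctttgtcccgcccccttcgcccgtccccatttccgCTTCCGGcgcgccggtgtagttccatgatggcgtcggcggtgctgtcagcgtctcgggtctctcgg
Cox6b1: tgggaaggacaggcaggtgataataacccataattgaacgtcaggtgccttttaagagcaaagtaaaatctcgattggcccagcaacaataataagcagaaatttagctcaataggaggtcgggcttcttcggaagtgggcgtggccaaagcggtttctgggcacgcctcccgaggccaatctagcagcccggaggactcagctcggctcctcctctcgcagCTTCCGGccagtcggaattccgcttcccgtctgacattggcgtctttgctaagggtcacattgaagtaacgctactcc
Atp5j: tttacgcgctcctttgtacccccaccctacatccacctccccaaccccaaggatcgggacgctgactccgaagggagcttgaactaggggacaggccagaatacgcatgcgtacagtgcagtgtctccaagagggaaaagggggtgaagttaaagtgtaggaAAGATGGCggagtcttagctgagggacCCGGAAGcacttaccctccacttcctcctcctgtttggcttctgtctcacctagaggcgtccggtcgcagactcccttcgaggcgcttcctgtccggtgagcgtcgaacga
Ndufa4: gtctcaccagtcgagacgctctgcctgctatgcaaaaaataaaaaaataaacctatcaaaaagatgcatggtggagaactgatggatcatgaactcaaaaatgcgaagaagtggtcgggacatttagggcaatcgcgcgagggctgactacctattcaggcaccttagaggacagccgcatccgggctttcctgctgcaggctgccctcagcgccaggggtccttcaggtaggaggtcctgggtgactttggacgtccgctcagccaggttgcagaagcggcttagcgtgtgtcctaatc
AA467197: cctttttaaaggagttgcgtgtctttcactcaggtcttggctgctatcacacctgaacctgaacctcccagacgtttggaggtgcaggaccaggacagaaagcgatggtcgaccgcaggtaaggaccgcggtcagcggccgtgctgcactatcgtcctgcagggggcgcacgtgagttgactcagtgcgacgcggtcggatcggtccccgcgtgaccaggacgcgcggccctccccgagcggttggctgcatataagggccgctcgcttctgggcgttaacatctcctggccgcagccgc
In Cox6a1 the NRF1 letters lie at bases 89 to 96 and, overlapping them on the opposite strand, at 91 to 98, and the ETS letters, on the opposite strand, bases 235 to 241. In Cox6b1 the ETS letters, again on the opposite strand, lie at bases 223 to 229, and in Atp5j the YY1 letters lie at bases 163 to 170 and ETS letters at 190 to 196.

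To determine whether test supernatant changed the level of single subunit genes, the log2(FPKM + 1) values of test and control libraries were compared with limma for all 11169 genes tested. In this fit 0 of 78 members passed an adjusted p of 0.05, and 0 had an unadjusted p under 0.05, while 7.87% of all genes tested passed (330 higher and 549 lower in test) and 25.3% had an unadjusted p under 0.05. No member had test libraries all above or all below the control libraries, compared with 9.48% of all genes tested. The split of the genes called moved with scaling, to 360 higher and 371 lower with median-ratio factors and to 261 and 775 with equal FPKM sums, and with the control libraries used, to 82 and 63 without Blank-1, 635 and 824 without Control-1 and 36 and 8 with Control-tagged libraries as the only control. The count of members called was 0 under each of these. With label sets as the unit, no gene of the 11169 passed with limma, although 1426 had an unadjusted p under 0.05.

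The differences of the members ran from -0.26 to 0.45 on the log2 scale, with a median of 0.09 beside -0.03 for all genes tested. Above 0 were 58 of 78 members, beside 4964 of the 11169 genes tested. By complex the medians were 0.06 in I, 0.01 in II, 0.10 in III, 0.15 in IV and 0.10 in V. Without Test2-1, the library that stood apart, the median over the members was 0.01, and the medians by complex were -0.05 in I, -0.02 in II, 0.01 in III, 0.08 in IV and 0.01 in V. Leaving out another single library gave medians over the members of 0.06 (without Blank-1) to 0.14 (without Test1-1), and with the GC content and length trends removed the median was -0.01, with 37 of 78 above 0. The 95% intervals of the differences lay inside ±0.5 for 52 members and inside ±1 (a 2-fold change) for 77, the exception being Uqcrq, a complex III accessory subunit, with an upper bound of 1.07. No interval shows that a level stayed the same.

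**Figure D4:**
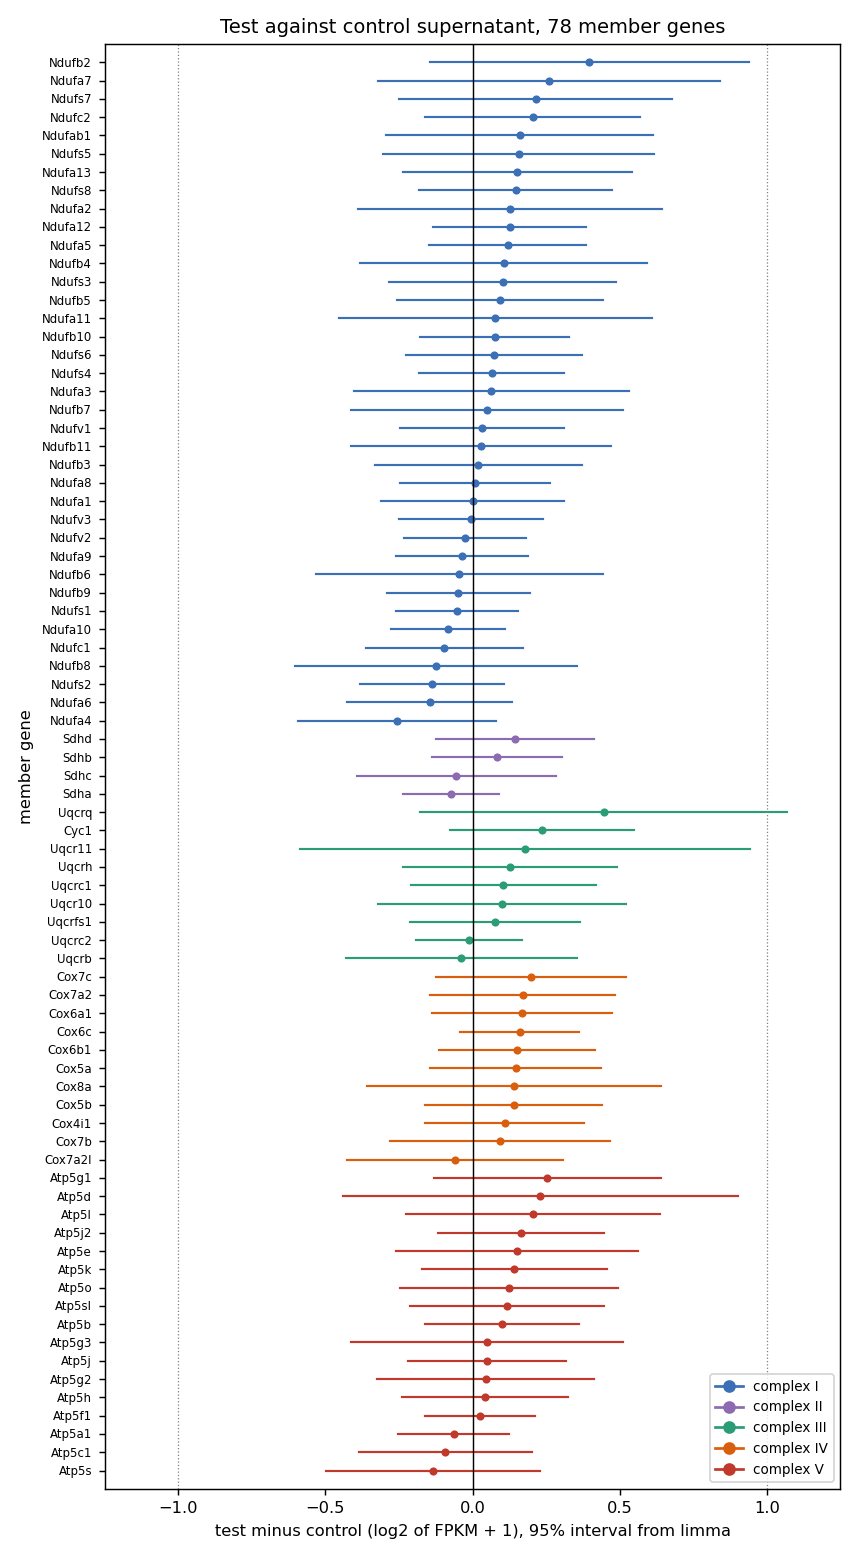
Test minus control difference in log2(FPKM + 1) for the 78 member genes with the 95% interval from limma, coloured by complex, with dotted lines at a 2-fold change. Every interval includes 0, the points lie between -0.26 and 0.45, and the interval of Uqcrq alone passes a dotted line, up to 1.07.

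Complex I, the NADH dehydrogenase, was represented by 7 core and 30 accessory genes, with mean levels from 8.35 FPKM (Ndufa11) to 239 FPKM (Ndufa12, a peripheral-arm accessory subunit). The 30 include Ndufa4, by its name only. Ndufa12 had 214 to 294 FPKM (median 249) in test libraries, against 187 and 247 FPKM in Control and 218 and 256 FPKM in Blank libraries. Its conditions overlapped, with a log2 difference of 0.13 ± 0.12 (SE, limma adjusted p = 0.557). The core subunits, which carry the flavin, the iron-sulfur clusters and the quinone site, had a median difference of 0.03, and the accessory subunits of 0.06. Neither class had a member with an adjusted p under 0.325 from limma, which is the value of Ndufa4.

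Ndufa4 had the lowest p of the genes counted with complex I. Its level was 75.7 and 78.5 FPKM in Test1, 106 and 70.1 FPKM in Test2 and 103 and 85.1 FPKM in Test3, against 86.4 and 86.3 FPKM in Control and 112 and 131 FPKM in Blank. Only the Blank libraries stood above all test libraries, and the Control libraries lay within the test range. The difference of test and control was -0.26 ± 0.15 on the log2 scale (SE, limma adjusted p = 0.325), and permuting the condition labels in all 210 arrangements gave an exact two-sided p = 0.148, which treats the 10 libraries as exchangeable although they come in 5 sets of 2. It depended on the control chosen, with -0.02 against Control-tagged libraries alone and -0.50 against Blank-tagged libraries alone (limma adjusted p = 0.989 and 0.0725).

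Complex II is the succinate dehydrogenase, encoded wholly in the nucleus, and its 4 genes had similar mean levels of 50.2 FPKM (Sdhc, a membrane anchor) to 68.5 FPKM (Sdhb, the iron-sulfur protein). Sdhb had 56.1 to 80.9 FPKM (median 71.8) in test libraries, against 69.2 and 67.6 FPKM in Control and 62.8 and 64.0 FPKM in Blank libraries. Sdhd, the other membrane anchor and the gene with the lowest p, had a difference of 0.14 ± 0.12 (SE, limma adjusted p = 0.505). Sdha, the flavoprotein, varied least between libraries, with 59.3 ± 2.10 FPKM in test and 62.6 ± 3.37 FPKM in control libraries (SD, n = 6 and 4, limma adjusted p = 0.580).

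Complex III, the cytochrome bc1 complex, ranged from Uqcrfs1 (the Rieske iron-sulfur protein, 31.8 FPKM) to Uqcrb (a ubiquinone-binding protein, 319 FPKM) in mean level. Uqcrb had 236 to 352 FPKM (median 339) in test libraries, against 209.6 and 350.1 FPKM in Control and 349 and 402 FPKM in Blank libraries. The 2 Control libraries thus lay further apart than the lowest and highest test libraries, and the difference was -0.04 ± 0.18 (SE, limma adjusted p = 0.924). Cyc1, cytochrome c1, had the lowest p of the complex, with 68.8 ± 12.1 FPKM in test and 58.1 ± 9.90 FPKM in control libraries (SD, n = 6 and 4, limma adjusted p = 0.330). Its highest control value, 72.7 FPKM in Control-1, was above 4 of the 6 test values.

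Complex IV, cytochrome c oxidase, has several nuclear subunits with tissue isoforms, and the forms found in most tissues were the ones measured. Cox4i1 averaged 227.5 FPKM in test and 208 FPKM in control libraries, and Cox6b1, the gene with the highest mean in the complex, 289 FPKM in test and 258 FPKM in control. The forms typical of lung, muscle or testis were near 0. Cox4i2 reached at most 0.32 FPKM, Cox6a2 and Cox6b2 were each listed at 0 in 9 libraries, and Cox7a1, with 0 to 1.51 FPKM, reached 1 FPKM in 1 library only. These 4 are the matching genes that did not pass the minimum, and Cox8b and Ndufa4l2 are not analysed here. The members nearest the minimum on its other side were Atp5s, with 1.67 to 3.71 FPKM, and Atp5sl, with 2.15 to 4.27 FPKM.

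None of the complex IV genes passed the test. Cox6c had the lowest p of all 78, with 117 to 153 FPKM (median 123) in test libraries, against 111 and 116 FPKM in Control and 111 and 118 FPKM in Blank libraries, a difference of 0.16 ± 0.09 (SE, limma adjusted p = 0.308). Cox7a2, Cox7b and Cox8a averaged 73.2, 70.5 and 179 FPKM in test libraries and 64.0, 65.2 and 165 FPKM in control libraries, all within 1 SD of the test libraries. Cox7a2l, a supercomplex assembly factor related to Cox7a2, averaged 84.6 ± 21.5 FPKM in test and 86.3 ± 7.90 FPKM in control libraries (SD, n = 6 and 4).

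Complex V was led by Atp5b, the catalytic beta subunit, which had the highest mean of all members. Atp5b had 457 to 728 FPKM (median 606) in test libraries, against 585 and 555 FPKM in Control and 529 and 523 FPKM in Blank libraries. The test libraries enclosed the control range, and the difference was 0.10 ± 0.12 (SE, limma adjusted p = 0.654). The genes Atp5g1, Atp5g2 and Atp5g3 encode the same mature c subunit of the rotor ring, and Atp5g2 gave 41.8% to 48.5% of their summed FPKM in test libraries and 45.2% to 48.2% in control libraries. Atp5g1, with the lowest p of the complex, averaged 102 ± 21.6 FPKM in test and 86.4 ± 23.1 FPKM in control libraries (SD, n = 6 and 4, limma adjusted p = 0.409).

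In the other comparisons the 5 label sets were the groups of the fit, and all libraries share 1 estimate of the spread within sets. Test sets against Control-tagged libraries share the Control libraries with the comparison above. Here too 0 of 78 members passed with limma, beside 3.61% of all genes, and 1 had an unadjusted p under 0.05. The median of the members was 0.01, with a range of -0.07 (without Control-2) to 0.12 (without Control-1) when 1 library was left out.

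Control-tagged against Blank-tagged libraries asked whether both sets titled as control supernatant gave the same level. Of the 78 members 0 passed with limma, beside 5.94% of all genes, and 3 had an unadjusted p under 0.05. Nearest was Ndufb3, an accessory subunit of the membrane arm of complex I, named after its values were seen, with 23.9 and 28.2 FPKM in Control and 41.3 and 38.7 FPKM in Blank libraries. Both Control values lay below both Blank values, the difference was -0.60 ± 0.17 (SE, limma adjusted p = 0.0660), and without Test1-1 or Test1-2 it passed (adjusted p = 0.0327 and 0.0322). The median of the members was 0.14, with 57 of 78 above 0, beside 5134 of the 11169 genes tested. This median was 0.05 without Control-1 and 0.23 without Control-2.

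Among the test sets 1 member was called. In Test3 against Test1 and Test2, Atp5s, the factor B gene, had 1.92 and 1.67 FPKM in Test3, against 2.59 and 2.48 FPKM in Test1 and 3.71 and 3.59 FPKM in Test2. Its libraries in Test3 were the lowest of all 10, and it fell by 0.54 ± 0.13 on the log2 scale (SE, limma adjusted p = 0.0432). It was 1 of 78 members, beside 3.13% of all genes called lower and 6.48% in either direction, and the call was lost when any 1 of the 10 libraries was left out (adjusted p from 0.0562 to 0.163). Above 0 were 23 of 78 members, beside 5457 of the 11169 genes tested. The members as a whole had a median of -0.13, beside -0.01 for all genes. It ranged from -0.26 without Test3-2 to -0.0019 without Test3-1, and was -0.22 without Test1-1, -0.07 without Test1-2, -0.06 without Test2-1 and -0.24 without Test2-2. Without Test1-1, Cox7a2l was called (-0.56, adjusted p = 0.0311, against -0.44 and 0.0989 with all libraries). When libraries were left out in turn, 0 to 2 members were called, and members not named here are among them.

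Test1 against Test2 gave 0 of 78 members called with limma, beside 0.161% of all genes, and 11 with an unadjusted p under 0.05 (14.1%, beside 11.4% of all genes). Of all 11169 genes tested, 4723 were higher in Test1. All but 2 of the 78 members were lower in Test1, with a median of -0.31. The median was -0.10 without Test2-1, -0.51 without Test2-2, -0.17 without Test1-1 and -0.44 without Test1-2.

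Ndufa4 has a paralog, AA467197 (RefSeq synonym Nmes1), whose protein is known to take the place of NDUFA4 in complex IV of inflamed cells. AA467197 (chr2:122637887-122641076, GRCm38) had 1177 and 1003 FPKM in Test1, 1090.2 and 861 FPKM in Test2 and 1076 and 1180 FPKM in Test3, against 609 and 758 FPKM in Control and 81.4 and 81.7 FPKM in Blank libraries. All test libraries lay above all control libraries, and the Control libraries lay far above the Blank libraries. On the FPKM scale it stood above each of the 78 members in every test library and in both Control libraries, but not in the Blank libraries. Its ratio to Ndufa4 was 10.3 to 15.6 in test libraries, 7.05 and 8.79 in Control and 0.727 and 0.623 in Blank.

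AA467197 rose by 2.16 ± 0.58 on the log2 scale in test against control (SE, limma adjusted p = 0.0428). Permuting the condition labels gave an exact two-sided p = 0.00476, the smallest that the 210 arrangements of single libraries allow. That permutation p treats the libraries as exchangeable although they come in label sets, so it overstates the replication if libraries of a set share a culture. With label sets as the unit, the limma adjusted p of AA467197 was 0.338. The size of the difference moved with the control set. It was 3.04 ± 0.17 in Control against Blank (SE, limma adjusted p = 1.2e-06) and 0.64 ± 0.14 in the test sets against Control (SE, limma adjusted p = 0.0307). The call of test against control was lost without either Blank library (adjusted p = 0.156 and 0.153) or any of the 6 test libraries (0.0564 to 0.0833), with the GC content and length trends removed (0.0530) and with a random effect for label set (0.0674), and that of the test sets against Control was lost without any 1 of the Blank and Control libraries or of Test1-1, Test2-1 and Test3-2 (0.0527 to 0.306).

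**Figure D5:**
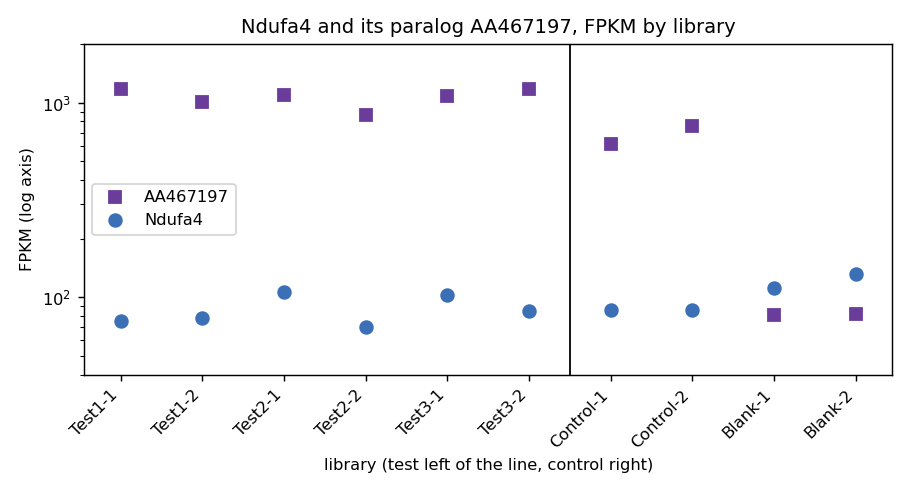
FPKM of AA467197 (squares) and Ndufa4 (circles) in each library on a log axis, test left of the line and control right. AA467197 lies at 861 to 1180 FPKM in test, 609 and 758 FPKM in Control and 81.4 and 81.7 FPKM in Blank libraries, whereas Ndufa4 stays between 70.1 and 131 FPKM in all 10.

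Irg1 (RefSeq symbol Acod1), which makes itaconate, an inhibitor of succinate dehydrogenase, rose too. It had 15.4 and 15.9 FPKM in Test1, 13.99 and 12.4 FPKM in Test2 and 32.3 and 33.8 FPKM in Test3, against 1.91 and 1.96 FPKM in Control and 0.350 and 0.350 FPKM in Blank libraries. The conditions did not overlap, with a difference of 3.33 ± 0.34 on the log2 scale (SE, limma adjusted p = 0.000926). With label sets as the unit its adjusted p was 0.248. Pdk1, a kinase that inhibits pyruvate dehydrogenase, averaged 7.72 FPKM in test and 7.53 FPKM in control libraries (limma adjusted p = 0.906). Pdk4, a kinase with the same target, was below the minimum and not tested, with 0.66 and 0.88 FPKM in Test1, 0.45 and 0.72 FPKM in Test2 and 1.1 and 1 FPKM in Test3, against 0.49 and 0.54 FPKM in Control and 0.35 and 0.33 FPKM in Blank libraries. Its value was above all control libraries in 5 of the 6 test libraries.

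Genes that serve the chain without being members were counted by list, to be read beside the 7.87% of all genes tested that passed in this comparison. Of 40 assembly factors 1 rose and 0 fell in test against control, with a median of 0.06. The 1 was Ndufaf4, an assembly factor of complex I, at 10.7 ± 1.63 FPKM in test and 7.48 ± 0.89 FPKM in control libraries (SD, n = 6 and 4, log2 difference 0.46, limma adjusted p = 0.0468), and when 1 library was left out the call held only without Test2-1 or Test2-2. With a random effect for label set it was lost (adjusted p = 0.121). Of 14 regulators of mitochondrial biogenesis 0 rose and 1 fell, with a median of -0.12. It was Tfb1m, a methyltransferase of mitochondrial ribosomal RNA, at 3.46 ± 0.48 FPKM in test and 5.44 ± 1.32 FPKM in control libraries (SD, n = 6 and 4, log2 difference -0.51, limma adjusted p = 0.0466), whose call, when 1 library was left out, held only without Control-2 and was lost with a random effect for label set (adjusted p = 0.161). No gene was called in either direction among 18 genes of the citrate cycle and pyruvate dehydrogenase (median -0.02), 76 mitochondrial ribosomal proteins (median 0.08), 84 cytosolic ribosomal proteins (median 0.12) and 6 subunits or partners under other symbols, cytochrome c (Cycs) among them (median 0.15).

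Of epithelial markers 10 of 11 are in the table and summed to 1253 to 3109 FPKM in test and 1397 to 2939 FPKM in control libraries, most of it Krt18 and Krt8. Over all libraries Cdh1 lay at 8.69 to 14.2 FPKM and Epcam at 3.59 to 8.19 FPKM, while Krt5, Krt14 and Esrp1 reached at most 0.07, 1.61 and 1.24 FPKM. Of 9 CD4 T cell markers 3 are in the table, with Il7r and Lck at or below 0.26 FPKM and Cd3d at 2.25 to 16.6 FPKM in test and 0.98 to 4.87 FPKM in control libraries, and the list summed to 2.42 to 17.0 FPKM in test and 1.00 to 4.90 FPKM in control. Of macrophage markers 6 of 8 are in the table and summed to 11.9 to 22.2 FPKM in test and 13.3 to 19.0 FPKM in control libraries, carried by Cd14 and Cd68, with Csf1r and Itgam at or below 0.11 FPKM. Fibroblast markers, 8 of 8, summed to 6.18 to 12.4 FPKM in test and 17.8 to 49.0 FPKM in control libraries, nearly all of it Pdgfrb, with Col1a1 and Col1a2 at or below 0.55 FPKM. Endothelial markers (5 of 5) summed to 0.13 to 0.72 FPKM in test and 0.17 to 0.22 FPKM in control libraries, and adipocyte markers (3 of 5) to 0.94 to 2.86 FPKM in test and 0.61 to 1.58 FPKM in control libraries. The part of these other cell types in the values above was not tested.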

How the data were processed

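RNA from PyMt cells was made into 10 libraries and sequenced on an Illumina HiSeq by BGI. Alignment by the authors used Bowtie and mm10. The authors deposited FPKM per gene and library with 2 decimals. For the program that computed FPKM, the annotation release and read totals, the sources used here give nothing, so the depth is unknown and intervals that need counts were not computed. Subunit genes have processed pseudogenes, and how reads shared with such copies were counted is not given either.

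The conditions and label sets came from the sample titles. Values were tested as log2(FPKM + 1), a scale that understates the change of low genes, with limma 3.58.1 in R 4.3.3 over 11169 genes that reached 1 FPKM in 4 or more libraries (two-sided moderated test with an intensity trend in eBayes, adjusted by Benjamini-Hochberg over all genes tested, threshold 0.05). The count methods named in the paper (Poisson, Noiseq, EBSeq) need counts, and the linear model replaced them. Python 3.11.15 made the summaries and figures. The procedure was tested on simulated data that held the spread within sets but no differences between sets, unlike the data here. In test against control it recovered 50.7% of the simulated log2 changes of 0.5 and 88.1% of those of 1. For Test1 against Test2 the shares were 7.46% and 59.7%.

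Coordinates came from RefSeq (GRCm38.p6), and transcript lengths and GC contents from GENCODE transcripts of the same build, matched for all 78 members. Named were, per complex, the member with the highest mean and the one with the lowest p, members with isoforms, called members, called genes of the lists and members next to the minimum. Members, lists and tests were chosen with earlier results of these data known. Alternatives covered pseudocount, filter, scaling, GC content and length, eBayes settings, a block on the library number, omission of each library and of each test set, the control set and the unit of replication. A combination of GC correction and block, and fits split by the libraries' trend with GC content, were added after seeing the data. All 10 value columns were used.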

Additional observations from a re-analysis of the deposited data

Results flagged for a closer look

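In 4 of 66 groups of libraries examined (test and control, for the genes named and for the members' share of the FPKM sum), 1 library stood apart from the others by Dixon's criterion, and chance alone gives about 1 in 20. Cox4i1 had 310.05 FPKM in Test2-1, against 190.18 to 225.15 FPKM in the other test libraries. Cox8a had 254.18 FPKM in Control-1, against 132.19 to 137.87 FPKM in the other control libraries. Atp5g2 had 187.52 FPKM in Control-1, against 125.76 to 133.56 FPKM in the other control libraries. Idh2, mitochondrial isocitrate dehydrogenase and not a member, had 68.3 FPKM in Control-1, against 52.25 to 54.96 FPKM in the other control libraries.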

How the results depend on the processing

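The count of members called was 0 under all 33 alternatives of test against control and under all 23 each of Test1 against Test2 and of the test sets against the Control set. In Control-tagged against Blank-tagged libraries it was 1 (Ndufb3) at an adjusted p under 0.1, with the GC content and length trend removed and with that trend removed in a fit with the replicate block, and 0 to 1 when libraries were left out in turn. In Test3 against Test1 and Test2 it was 1 in the fit described, 2 at an adjusted p under 0.1 and with the GC content and length trend removed, 0 without a filter, with the same FPKM sum per library and with the replicate block, and 0 to 2 when libraries were left out in turn. It was also 0 with a minimum of 5 FPKM, which takes Atp5s (1.67 to 3.71 FPKM) out of the fit, so its call was not tested there. The labels do not state that the library numbers pair the samples. Differences between numbers 1 and 2 correlated between sets from -0.52 to 0.26, which cannot settle whether libraries of 1 number were handled together. The replicate block changed no other count of members. The median over the members in test against control ranged from -0.01 (without set Test2) to 0.16 (Blank-tagged libraries as the only control), against 0.09. Of 1208 values of the genes named under the alternatives, 69 changed sign, none of them called in either fit. The replicate block ended the calls of AA467197 (adjusted p = 0.0662 in test against control), Ndufaf4 (0.0730), Tfb1m (0.0649), Atp5s (0.0707) and Idh2 (0.0664). Over all genes tested, 879 called became 554 with the block, 145 without either Blank library, 1459 without Control-1, 1711 with Blank-tagged libraries as the only control, 44 with Control-tagged libraries as the only control, 302 with a random effect for label set, 2206 with the spread within label sets, and 0 with label sets as the unit. Depth could not be weighed, since read totals are not given.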

Other observations

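Outside the members, 2 genes of mitochondrial metabolism, both singled out after their values were seen, had calls that moved with the libraries used. Idh2, the mitochondrial isocitrate dehydrogenase, had 34.59 and 40.7 FPKM in Test3, against 54.35 and 50.4 FPKM in Test1 and 61.7 and 53.31 FPKM in Test2. Its Test3 libraries were the lowest of the 6, with a difference of -0.53 on the log2 scale (limma adjusted p = 0.0408), and the call was lost when any 1 test or Blank library was left out. Cycs, which encodes the cytochrome c that carries electrons to complex IV, averaged 86.97 ± 6.18 FPKM in test and 70.55 ± 10.7 FPKM in control libraries (SD, n = 6 and 4). Its difference was 0.31 on the log2 scale (limma adjusted p = 0.0905), and it was called without Control-2 (adjusted p = 0.0298) and with Blank libraries as the only control (adjusted p = 0.0321).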
